A study of Mus musculus with 6 samples.

Results

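The miR-99/100 and miR-125 families were followed in white adipose tissue (WAT) of ApoE-deficient mice through 5 mature miRNAs: miR-99a-5p, miR-99b-5p, miR-100-5p, miR-125a-5p and miR-125b-5p. They were picked by name, as the rows of the count table that carry their miRBase accessions (MIMAT0000131, MIMAT0000132, MIMAT0000655, MIMAT0000135 and MIMAT0000136, in the same order), and all 5 of them were found among the 707 mature miRNAs listed. Of the miRNA-seq libraries, 3 came from male mice of this genotype exposed to chronic intermittent hypoxia (CIH) over 8 weeks (CIH group). The other 3 came from control mice of the same genotype and sex (control group). Each library is labelled as a replicate of its group. Whether each came from a separate mouse is not given in the sources used here. ApoE deficiency removes the apolipoprotein that clears lipoproteins from the blood, and CIH, which repeats falls of inspired oxygen and reoxygenation, models the hypoxia of obstructive sleep apnea. Every mouse lacked ApoE and no wild-type mice are analysed here, so the values describe CIH on that background alone, and neither the fat depot nor the age of the mice is given in the sources used here.

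A miRNA guides the silencing complex to mRNAs that pair with its seed, bases 2 to 8 counted from the 5′ end. The miR-99/100 family is an old animal family best known for repressing the growth kinase mTOR. The miR-125 family descends from lin-4, the first miRNA described in worms, and acts with let-7 in developmental timing and in the growth and differentiation of many cell types. In the mouse genome the families are neighbours, since each miR-99/100 gene lies beside a let-7 gene and a miR-125 gene.

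The mature sequences are shown because the seed divides the 5 miRNAs into families and because the bases outside it decide how well their reads can be told apart. The RefSeq table (GRCm38.p6) held all 5 by name. The seed is in capitals.

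miR-99a-5p: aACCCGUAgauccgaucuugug
miR-100-5p: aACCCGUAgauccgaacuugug
miR-99b-5p: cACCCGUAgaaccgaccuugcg
miR-125a-5p: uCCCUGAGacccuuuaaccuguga
miR-125b-5p: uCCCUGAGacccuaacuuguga

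The first 3 share the seed ACCCGUA, which no other mature miRNA of the table has. The other 2 share CCCUGAG with miR-351-5p, miR-6367 and miR-6394. miR-99a-5p and miR-100-5p differ at 1 base, U16A (position counted from the 5′ end, base of miR-99a-5p first). From miR-99a-5p to miR-99b-5p there are 4 differences (A1C, U11A, U16C and U21C). miR-125a-5p and miR-125b-5p share their first 13 bases, and miR-125a-5p has 24 bases where the other 4 have 22. Over their first 20 bases, no miRNA of the table outside the families comes within 3 differences of a family miRNA without a gap. How the authors treated reads with a mismatch is not given in the sources used here, and with a mismatch allowed a read of miR-99a-5p could be counted for miR-100-5p or the reverse.

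The genes form 3 clusters on GRCm38 (GENCODE release M21). Mir99a (chr16:77598936-77599000), Mirlet7c-1 and Mir125b-2 (chr16:77646273-77646343) lie within 47408 bases on the plus strand, in introns of the noncoding gene Mir99ahg. Mir100 (chr9:41531425-41531504), Mirlet7a-2 and Mir125b-1 (chr9:41581926-41582002) lie within 50578 bases on the plus strand, in introns of the noncoding gene 3110039I08Rik, which RefSeq calls Mir100hg. Mir99b (chr17:17830188-17830257), Mirlet7e and Mir125a (chr17:17830812-17830879) lie within 692 bases on the plus strand of Spaca6, a protein-coding gene of sperm function, with Mir99b in an intron and Mir125a overlapping an annotated exon. Mir125b-1 and Mir125b-2 give the same miR-125b-5p, so its counts sum the chromosome 9 and chromosome 16 clusters, while each of the other 4 miRNAs has 1 locus. Mir125b-1 and Mir125b-2 also overlap exons of the noncoding gene Gm28119 and of C130023A14Rik, a gene that GENCODE has not yet classed, on the same strand, and Mir100 overlaps an exon of Gm48742 on the opposite strand.

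The hairpins of the pair that differs at 1 base are shown because they come from different chromosomes and diverge outside the mature 5p arm, which is in capitals.

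Mir99a: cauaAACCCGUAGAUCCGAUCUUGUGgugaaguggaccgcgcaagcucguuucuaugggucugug
Mir100: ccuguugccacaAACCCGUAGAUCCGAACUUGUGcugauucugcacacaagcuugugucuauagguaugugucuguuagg

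The 6 libraries held between 636963 and 4783768 counts, of which the leading miRNA took 20.7% to 34.9%. Fewer miRNAs had any count in control 1 (487, at 1365868 counts) and control 2 (552, at 4783768 counts) than in the other libraries (631 to 649). Libraries are named by group and replicate number. Over the 633 miRNAs whose counts summed to at least 10, log2 CPM of control 3 correlated with the CIH libraries at 0.958 to 0.974 and with control 1 and control 2 at 0.595 and 0.661, while control 1 and control 2 correlated at 0.831. These are correlations over miRNAs, not over replicates. Values below are therefore given for each library, and with and without the control libraries where these decide them.

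All 5 miRNAs were well detected. miR-99a-5p was the most abundant of them in 5 of the 6 libraries. Control 1, 2 and 3 held 992, 33171 and 23184 counts of it, and CIH 1, 2 and 3 held 14214, 20499 and 15400. It ranked between 6 and 63 among the miRNAs of a library by count, with the rank of 63 in control 1.

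Counts were then set on a common scale as CPM (counts scaled to a fixed library size) with TMM factors, which correct the library totals for composition. The factors ran from 0.575 in control 1 to 1.45 in CIH 3. On this scale miR-99a-5p stood at 1263, 8003 and 20897 in controls 1 to 3 and at 11415, 22148 and 16705 in CIH 1 to 3. Control 1 was the lowest library by a wide margin, control 3 lay among the CIH libraries, and the groups overlapped. The highest control library was 16.6 times the lowest, and in the CIH group the ratio was 1.94. Over all 6 libraries the ratio was 17.5, and with CPM of the library totals, without TMM factors, it was 40.3. The coefficient of variation (SD over mean) of miR-99a-5p was 99.2% in controls and 32.0% in the CIH group. Over the 401 miRNAs whose mean reached 10 CPM, the median coefficient was 84.5% in controls and 27.4% in the CIH group. The wider spread of the controls was thus not particular to miR-99a-5p.

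miR-100-5p, the nearest relative of miR-99a-5p in sequence, was the steadier of the pair. Its counts were 2080, 12912 and 5069 in controls 1 to 3 and 4035, 5430 and 3768 in CIH 1 to 3. In TMM-normalized CPM these were 2647, 3115 and 4569 in controls 1 to 3 and 3240, 5867 and 4087 in CIH 1 to 3. The highest value was that of CIH 2, and the groups overlapped. Between the highest and the lowest library the ratio was 1.73 for controls and 1.81 for CIH.

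miR-99b-5p, the family miRNA of the Spaca6 locus, had 681, 6682 and 1352 counts in controls 1 to 3 and 1108, 1396 and 977 in CIH 1 to 3. These were 867, 1612 and 1219 TMM-normalized CPM in controls 1 to 3 and 890, 1508 and 1060 in CIH 1 to 3. Every CIH value lay within the range of the control values, which spanned 1.86-fold.

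miR-125a-5p, encoded in the same cluster as miR-99b-5p, was the least abundant in 5 of the 6 libraries. It had 190, 2041 and 292 counts in controls 1 to 3 and 201, 223 and 265 in CIH 1 to 3. In TMM-normalized CPM it stood at 242, 492 and 263 in controls 1 to 3 and at 161, 241 and 287 in CIH 1 to 3. Control 2 was the highest library and CIH 1 the lowest, and the other 4 lay between 241 and 287.

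miR-125b-5p, the family miRNA that the study's introduction names as cargo of vesicles from adipose stem cells, had 182, 5866 and 1559 counts in controls 1 to 3 and 722, 1227 and 1077 in CIH 1 to 3. In TMM-normalized CPM it stood at 232, 1415 and 1405 in controls 1 to 3 and at 580, 1326 and 1168 in CIH 1 to 3. Control 1 was again the lowest library, CIH 1 the second lowest, and the other 4 lay between 1168 and 1415. The ratio of the highest to the lowest library was 6.11 for controls and 2.29 for CIH. Its coefficient of variation was 66.9% in controls and 38.4% in the CIH group, beside the medians of 84.5% and 27.4% given above. In tissue RNA, fewer cells of a type and less of a miRNA per cell cannot be told apart.

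**Figure D1:**
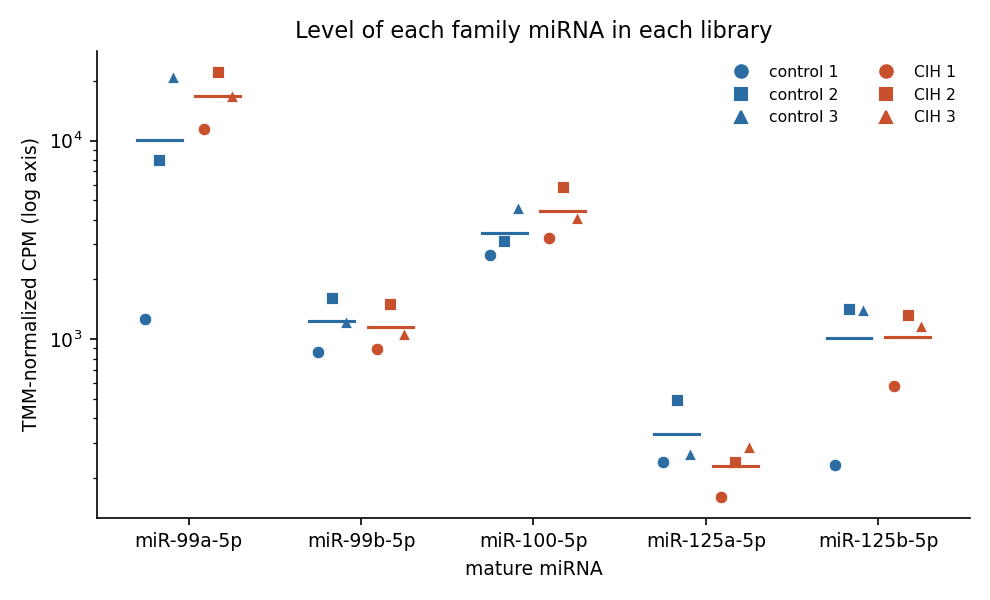
TMM-normalized CPM (log axis) of the 5 family miRNAs in each of the 3 control (blue) and 3 CIH (orange) libraries, with the marker shape giving the replicate number and the bar the group's arithmetic mean. miR-99a-5p and miR-125b-5p have their lowest values, 1263 and 232, in control 1, while miR-99b-5p spans 867 to 1612 and miR-100-5p 2647 to 5867 over all 6 libraries.

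Counting error was small beside the range of miR-99a-5p and miR-125b-5p. The 95% Wilson interval of a share had a half-width of 1.07% to 6.22% of the value for miR-99a-5p and at most 14.6% of it for the miRNA and library with the fewest counts, miR-125b-5p in control 1, where 133 CPM of the library total had an interval of 115 to 154. For miR-125a-5p the half-width was 11.5% to 14.3% in every library but control 2. The 4 libraries between 241 and 287 TMM-normalized CPM could thus not be ordered on that scale at this depth. In CPM of the library totals, the interval of control 1 (121 to 160) lay below those of CIH 2 (265 to 345), control 3 (328 to 413) and CIH 3 (369 to 469). These intervals cover counting error only.

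With TMM factors, the 2 steadiest of the 5, miR-99b-5p and miR-100-5p, were also steady beside the rest of the miRNAs. Over all 6 libraries, the SD of log2 TMM-normalized CPM was 0.38 for miR-99b-5p and 0.42 for miR-100-5p, against a median of 1.13 over the 401 miRNAs whose mean reached 10 CPM. For miR-125a-5p it was 0.52, for miR-125b-5p 1.05 and for miR-99a-5p 1.55. The SD of miR-99b-5p was at percentile 8.98 of these miRNAs and that of miR-99a-5p at percentile 65.1. Family miRNAs with the same seed thus lay far apart in spread. This is a description of 6 libraries, with no test.

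Within a library, the levels followed the order miR-99a-5p, miR-100-5p, miR-99b-5p, miR-125b-5p and miR-125a-5p on the mean. A read covers a whole mature miRNA, so levels were not divided by length, but adapter ligation can favour some ends over others. miR-100-5p exceeded miR-99b-5p in 6 of 6 libraries, by 1.71 ± 0.39 on the log2 scale (SD, n = 6). miR-99a-5p exceeded miR-100-5p in 5 of 6 libraries, by 1.38 ± 1.23 (SD, n = 6). miR-125b-5p exceeded miR-125a-5p in 5 of 6 libraries, by 1.70 ± 0.93 (SD, n = 6), and the exception in both cases was control 1. miR-99b-5p and miR-125b-5p did not differ beyond their spread, with 0.42 ± 0.78 (SD, n = 6) and the order kept in 4 of 6 libraries.

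Summed, the 5 miRNAs took 0.302%, 1.27% and 3.97% of the counts of control 1, 2 and 3, and 1.29%, 3.90% and 3.37% of those of CIH 1, 2 and 3. The group means were 1.85% ± 1.90 (SD, n = 3) for controls and 2.85% ± 1.38 (SD, n = 3) for CIH, a difference of 1.01 percentage points that lies within the spread. Without control 1 the difference was 0.236 percentage points, and without control 3 it was 2.07. The 5 most abundant miRNAs of the table took 57.4% to 64.1% of the counts in the 3 libraries with the lowest summed share (control 1, control 2 and CIH 1) and 48.5% to 50.4% in the other 3. The part of that composition in the summed share was not tested. With the 5 most abundant miRNAs left out of the totals, the summed share was 0.791%, 2.97% and 7.73% in control 1, 2 and 3. It was 3.58%, 7.86% and 6.55% in CIH 1, 2 and 3, and the difference between the group means was 2.17 percentage points.

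The make-up of the sum does not depend on the library total. miR-99a-5p made up 24.0%, 54.7% and 73.7% of the summed counts in control 1, 2 and 3 and 70.1%, 71.2% and 71.7% in the CIH libraries. miR-100-5p made up 50.4%, 21.3% and 16.1% in controls 1 to 3 and 19.9%, 18.9% and 17.5% in CIH 1 to 3. The CIH libraries and control 3 thus had nearly the same make-up, control 1 had miR-100-5p as its leading miRNA, and control 2 lay between. The miRNAs of the Spaca6 locus, miR-99b-5p and miR-125a-5p, reached 16.5% and 4.61% in control 1 and stayed at 4.55% to 5.46% and 0.775% to 1.23% in the CIH libraries.

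**Figure D2:**
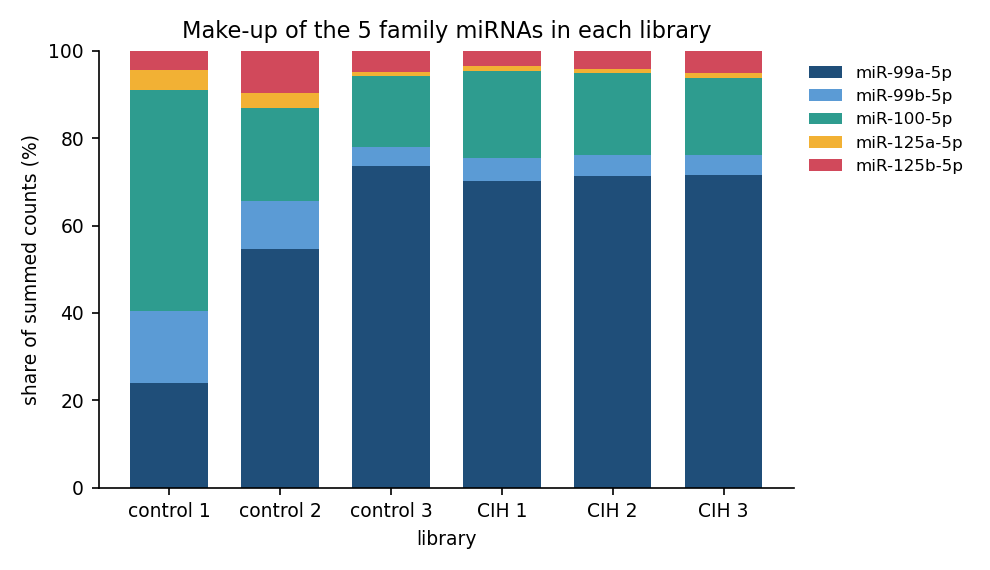
Stacked bars give the share (%) of each family miRNA in the summed counts of the 5 in each library. miR-99a-5p takes 70.1% to 73.7% in control 3 and the 3 CIH libraries, 54.7% in control 2 and 24.0% in control 1.

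Ratios of 2 miRNAs in the same library need no normalization and were used to ask whether miRNAs of one cluster keep their proportion under CIH. miR-99b-5p and miR-125a-5p lie close together in the Spaca6 locus. The ratio of their counts was 3.58, 3.27 and 4.63 in controls 1 to 3 and 5.51, 6.26 and 3.69 in CIH 1 to 3, so the groups overlapped. The mean log2 ratio was 1.92 ± 0.26 (SD, n = 3) for controls and 2.33 ± 0.40 (SD, n = 3) for CIH, a difference of 0.41 (two-sided exact permutation test, p = 0.2, adjusted p = 0.2 over the 2 ratios tested).

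The summed counts of miR-99a-5p and miR-100-5p were set against miR-125b-5p, which both of their clusters encode. This ratio was 16.9, 7.86 and 18.1 in controls 1 to 3 and 25.3, 21.1 and 17.8 in CIH 1 to 3. Control 2 was the lowest, and the lowest CIH library lay just under the highest control library. The mean log2 ratio was 3.74 ± 0.67 (SD, n = 3) for controls and 4.40 ± 0.25 (SD, n = 3) for CIH, a difference of 0.66 (same exact permutation test, p = 0.2, adjusted p = 0.2). Without control 2 the difference was 0.28 (p = 0.4 from the exact permutation test). With 3 libraries against 3, this test cannot give a p-value under 0.1.

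In the control group, 2 pairs with the same seed shared a feature, miR-99a-5p with miR-100-5p and miR-125b-5p with miR-125a-5p. It was not common to all pairs with the same seed, since miR-100-5p exceeded miR-99b-5p in 6 of 6 libraries. The first miRNA of each of the 2 pairs also had its lowest TMM-normalized CPM in control 1. The ratio of miR-99a-5p to miR-100-5p was 0.477, 2.57 and 4.57 in controls 1 to 3 and 3.52, 3.78 and 4.09 in CIH 1 to 3. The ratio of miR-125b-5p to miR-125a-5p was 0.958, 2.87 and 5.34 in controls 1 to 3 and 3.59, 5.50 and 4.06 in CIH 1 to 3. In both pairs control 1 was the only library under 1, control 2 was the second lowest, and control 3 lay with or above the CIH libraries. On the log2 scale the SD of the first ratio was 1.69 for controls and 0.11 for CIH (n = 3 each). Controls also had the wider spread over miRNAs in general, as given for miR-99a-5p above. The mean log2 ratio was higher in the CIH group by 1.09 for miR-99a-5p to miR-100-5p and by 0.81 for miR-125b-5p to miR-125a-5p, and without control 1 these differences were 0.14 for each pair. These ratios were chosen after the counts were seen and were not tested.

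**Figure D3:**
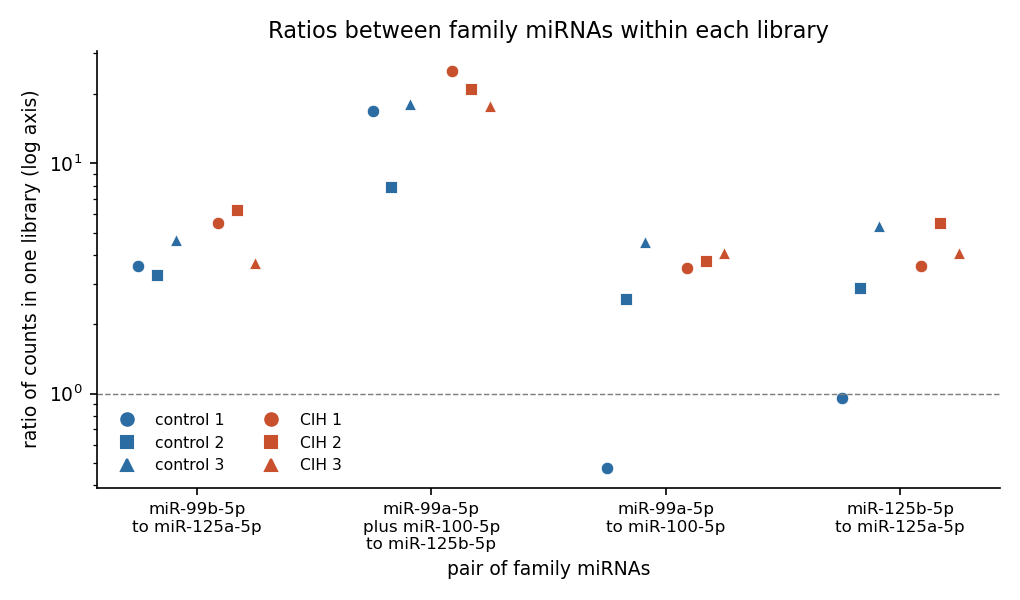
Ratio of the counts of 2 family miRNAs, or of a sum and 1 miRNA, within each library (log axis, dashed line at 1), with control libraries in blue, CIH libraries in orange and the marker shape giving the replicate number. The CIH libraries lie between 3.52 and 4.09 for miR-99a-5p to miR-100-5p, and the control libraries between 0.477 and 4.57.

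The comparison of the groups asked whether CIH changes the level of the family miRNAs in WAT. None of the 5 passed edgeR's quasi-likelihood test, at an adjusted or an unadjusted p-value under 0.05, and for none of them were the groups free of overlap. Over all 633 miRNAs tested, 0% had an adjusted p-value under 0.05, 2.53% had an unadjusted p-value under 0.05, and 8.06% had groups that did not overlap. DESeq2, limma voom and edgeR's exact test also gave 0 miRNAs with an adjusted p-value under 0.05. The median log2 fold change of the 5 was 0.01, against 0.07 over all miRNAs tested.

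Of the 5, miR-99a-5p had the largest log2 fold change, 0.74 (standard error 1.03; by the edgeR test, adjusted p = 0.885), from 10054 ± 9977 TMM-normalized CPM in controls to 16756 ± 5367 under CIH (SD, n = 3 each). Its 95% interval ran from -1.71 to 3.19. Its value moved with single control libraries and with the method. Without control 1 the log2 fold change was 0.27, and without control 3 it was 1.84 (adjusted p = 0.211 from the same test). With all 6 libraries it was 1.46 by limma voom, 1.44 with the replicate block and 0.35 with upper-quartile factors.

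miR-100-5p had 3444 ± 1002 TMM-normalized CPM as the control mean and 4398 ± 1341 as the CIH mean (SD, n = 3 each). Its log2 fold change of 0.35 had a 95% interval of -1.12 to 1.82 (adjusted p = 0.889 from the same test of edgeR). Without CIH 2 it was 0.09, and with upper-quartile factors it was -0.20. miR-99b-5p had 1233 ± 373 and 1153 ± 320 (SD, n = 3 each), with a log2 fold change of -0.10 and an interval of -1.52 to 1.32 (adjusted p = 0.959, edgeR). For the miR-99/100 family, a change of 2-fold in either direction was thus within the interval of each miRNA. The width of these edgeR intervals draws on spread shared over all miRNAs tested. By their own values miR-99b-5p and miR-100-5p were steadier, with an SD of log2 TMM-normalized CPM of 0.38 and 0.42 over all 6 libraries.

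miR-125a-5p had the lowest log2 fold change, -0.53, with an interval of -1.95 to 0.89 (adjusted p = 0.882, edgeR). Its level was 332 ± 139 TMM-normalized CPM in controls and 230 ± 63.7 under CIH (SD, n = 3 each). Control 2 set much of this value, and without it the log2 fold change was -0.06. miR-125b-5p had 1017 ± 680 and 1025 ± 393 (SD, n = 3 each), a log2 fold change of 0.01 and an interval of -1.99 to 2.01 (adjusted p = 0.997, edgeR). Without control 1 its log2 fold change was -0.43, and without control 2 it was 0.39. The p-values weigh a difference against the spread between the 3 libraries of a group, each labelled as a replicate. That spread is estimated by edgeR with information shared over all miRNAs tested, so it is not the miRNA's own spread alone. For miR-99b-5p edgeR's moderated coefficient of variation was 0.78, while its own values gave 30.3% in controls and 27.7% in the CIH group. The p-values do not show that the groups were alike.

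**Figure D4:**
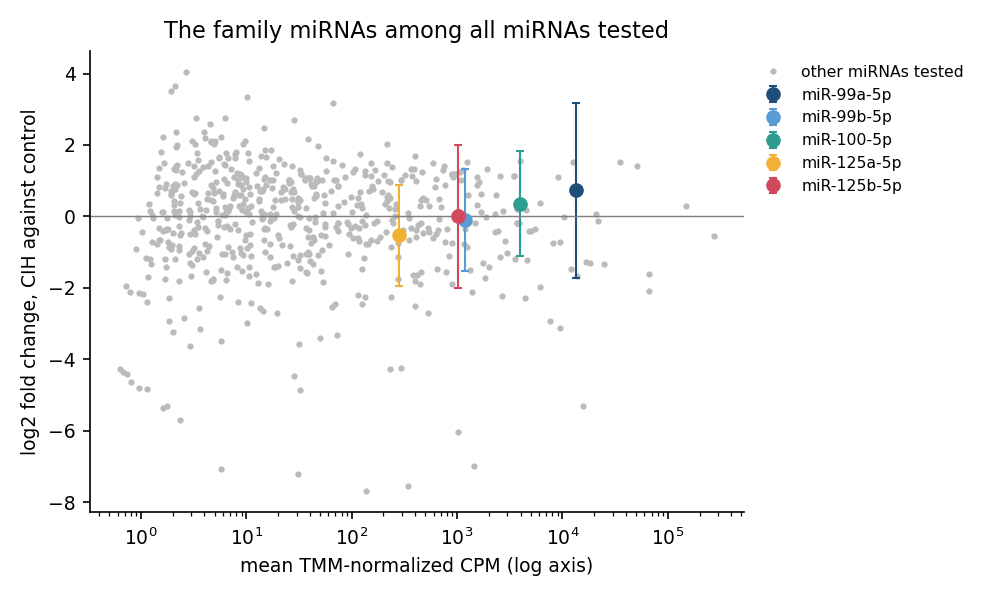
Log2 fold change (CIH against control, edgeR) against the mean TMM-normalized CPM of both groups (log axis) for the 633 miRNAs tested, with the 5 family miRNAs in colour and their 95% intervals as bars. All 5 intervals include 0.

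Control 3 was the control library most like the CIH libraries by these same counts, so the calls of a fit without it do not measure an effect of CIH. With any other single library left out, 0 miRNAs had an adjusted p-value under 0.05 by edgeR's test. Without control 3, 19.2% of the 614 miRNAs tested had an adjusted p-value under 0.05 and 36.6% an unadjusted p-value under 0.05, while 0 of the 5 family miRNAs passed either level. miR-99a-5p came nearest, with an unadjusted p of 0.0943 from edgeR's test. In this fit miR-100-5p had a log2 fold change of 0.59, miR-125b-5p of 0.30, miR-99b-5p of -0.12 and miR-125a-5p of -0.69. The signs of the miR-99a-5p and miR-125a-5p values were the same in every setting shown in the plot of log2 fold change by setting, and those of the other 3 turned in at least 1.

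**Figure D5:**
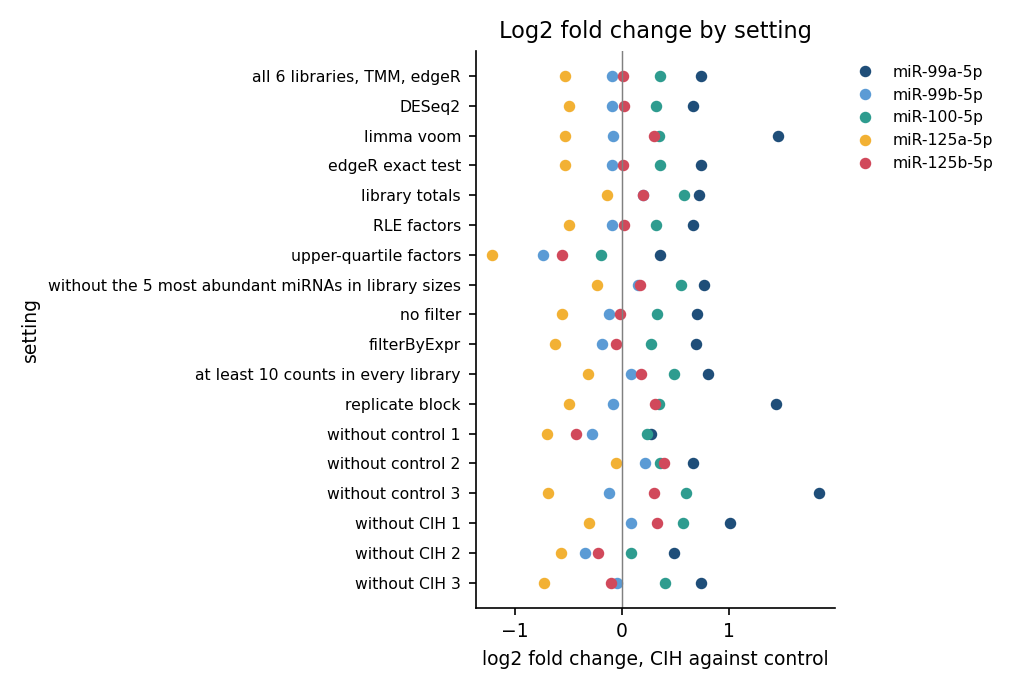
Log2 fold change (CIH against control) of the 5 family miRNAs under each test, normalization, filter and left-out library, 1 setting a line. miR-99a-5p stays above 0 with a range of 0.27 to 1.84, miR-125a-5p stays under 0 with a range of -1.22 to -0.06, and miR-99b-5p, miR-100-5p and miR-125b-5p lie on both sides of 0.

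The 5 were also compared with the other miRNAs by pattern, as the Pearson correlation of log2 TMM-normalized CPM over the 6 libraries, among miRNAs that reached 10 counts in each of them. The libraries of both groups are pooled in it and share 1 set of factors, so it is given as a description. miR-125b-5p was the family miRNA most like miR-99a-5p (r = 0.87, rank 16 of 237 others), followed by miR-100-5p (r = 0.82), whereas miR-99b-5p (r = 0.49) and miR-125a-5p (r = -0.03) were less alike. Both miR-99a-5p and miR-125b-5p were lowest in control 1, at 1263 and 232 TMM-normalized CPM. The correlations between family miRNAs were not repeated without that library, so its part in them was not tested. miR-99b-5p and miR-125a-5p of the Spaca6 locus correlated at 0.70, and miR-125a-5p and miR-100-5p at -0.09. No family miRNA was among the 2 miRNAs most like another. The closest to miR-99a-5p was MIMAT0004651 (r = 0.98) and the closest to miR-100-5p was MIMAT0004942 (r = 0.98), which the files list by accession alone.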

How the data were processed

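Per the file headers and the paper's methods, total RNA of WAT was made into small RNA libraries and sequenced on an Illumina instrument, and the authors deposited a table of raw counts, 707 mature miRNAs by 6 libraries, not normalized. Trimming, aligner, miRNA database release and handling of multiply matching reads are not given in the sources used here. Reads may have been split between similar miRNAs. Groups follow the titles. The counts of each pair of libraries differed by more than sampling noise.

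The 633 miRNAs with at least 10 summed counts were tested with edgeR 4.0.16 (TMM, quasi-likelihood, Benjamini-Hochberg over all) in R 4.3.3, first tested on simulated data. Intervals use the test's standard error, which draws on spread shared over all miRNAs tested. Log2 ratios had 0.5 counts added and correlations a prior count of 2 (Python 3.11.15, scipy 1.17.1). Alternatives used DESeq2 1.42.0, limma 3.58.1, other factors and filters, a block, and each library left out. The families and lists were chosen with earlier results of these data known. The naming rule took all 5 family miRNAs, relatives in their clusters, and the 2 miRNAs most like each in pattern. No table used here joins the accessions to names, so the 3p arms, let-7 partners and cell type markers are not analysed here, and 2 pattern-matched accessions are printed. With 636963 to 4783768 counts per library, counting error stayed under 15% of a value.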

Additional observations from a re-analysis of the deposited data

How the results depend on the processing

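None of the 5 family miRNAs reached an adjusted or unadjusted p-value under 0.05 in any of the 11 other settings or in the 6 fits with a library left out. Log2 fold changes turned sign for miR-99b-5p with library totals (0.20), library sizes without the 5 most abundant miRNAs (0.15), at least 10 counts in every library (0.0834), without control 2 (0.22) and without CIH 1 (0.09). They turned for miR-125b-5p with upper-quartile factors (-0.56), no filter (-0.0222), filterByExpr (-0.0531), without control 1 (-0.43), CIH 2 (-0.22) and CIH 3 (-0.10), and for miR-100-5p with upper-quartile factors (-0.20). Over all miRNAs tested the median change, 0.07 on the log2 scale as reported, was -0.52 with upper-quartile factors, 0.33 with library totals, 0.32 with the 5 top miRNAs left out of the library sizes, 0.37 with limma voom, 0.30 with the replicate block and 0.29 without control 2. The cause of the changed signs was not tested.

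With each library left out, log2 fold changes ran from 0.27 to 1.84 (miR-99a-5p), -0.34 to 0.22 (miR-99b-5p), 0.09 to 0.59 (miR-100-5p), -0.73 to -0.06 (miR-125a-5p) and -0.43 to 0.39 (miR-125b-5p). Over all miRNAs, those with an adjusted p-value under 0.05 ran from 0 to 102 higher and 0 to 16 lower in the CIH group, the highest without control 3, and those with an unadjusted p-value under 0.05 from 0 to 150 higher and 1 to 75 lower. The 2 tested log2 ratio differences ran from 0.25 to 0.63 (miR-99b-5p to miR-125a-5p) and from 0.28 to 0.88, and the summed share from 0.236 to 2.07 percentage points.

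The number of all miRNAs with an unadjusted p-value under 0.05 was 3 higher and 13 lower. The number higher was 8 with DESeq2, 68 with limma voom, 10 with edgeR's exact test, 6 with library totals, 1 with upper-quartile factors, 7 with library sizes without the 5 most abundant miRNAs and 8 with no filter. The number lower was 7 with limma voom, 7 with library totals, 38 with upper-quartile factors and 6 with filterByExpr.

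Both groups carry replicate numbers 1 to 3. Libraries with the same number deviated from their groups' means with correlations of 0.353, -0.116 and 0.0195. Libraries with different numbers were not compared in this way, so these values cannot decide whether the numbers mark pairs. With the replicate block, 1 miRNA was lower at an unadjusted p-value under 0.05, the log2 fold change of miR-99a-5p was 1.44, and both ratios had p = 0.5 (exact sign-flip test, smallest possible 0.25). Of the 10 most alike pairs, 5 were kept with Spearman correlation and 5 with library totals. The ratios of 5p to 3p arms and of let-7e-5p were not run, since no table used here joins the accessions to names.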
